A study of Mus musculus with 24 samples.

Results

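The complement components and complement regulators described here are 7 mouse genes, C1s1, C1ra, C3, C4b, Serping1, Cd55 and Cd59a, in a bulk RNA sequencing study of a mammary carcinoma cell line. They were chosen by name after results on these same libraries were known, so their fold changes between the groups belong to what selected them and are given as description: no p-value is given for a single one of them, and counts of them past a threshold are description too. The batch 2 count table held 5 of the 7 genes (C1s1, C1ra, C3, C4b and Cd59a) among its 13915 genes, and the same Ensembl identifiers were read from the 55471 genes of the batch 1 table. Serping1 and Cd55 were not detected in batch 2 by the rule that a gene needs an entry in that table, and their counts come from batch 1.

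EO771 is a mouse mammary carcinoma line from a spontaneous tumour of C57BL/6 mice, and 4 derivatives of it were sequenced to ask how the chemokine receptor CCR7 and the surface glycoprotein podoplanin (PDPN) alter the cells. X2 cells carried the vector control. CCR7 cells received mouse Ccr7, with a tdTomato reporter, from a PLNCX2 retrovirus, and flow sorting then enriched for both proteins. The column names of the sequenced CCR7 libraries mark them as PDPN-negative, and the study sorted the transduced population into both fractions. CCR7-PDPN cells were the PDPN-positive sort, for PDPN that had come up spontaneously, and X2-PDPN cells were vector control cells sorted in the same way for high PDPN. The same serum-containing RPMI-1640 medium, with glutamine and antibiotics, served for all derivatives. There were 4 libraries per group, 24 in all: the groups of batch 1 were CCR7, CCR7-PDPN and X2, and those of batch 2 were X2-PDPN, CCR7-PDPN and, again, X2.

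No clones were selected, the receptor came from a vector and not from the gene's own locus, and each population was represented by 4 technical replicates. The spread between libraries therefore measures technical variation only, and a difference between derivatives cannot be told apart from a difference between any 2 separately sorted populations. X2 against CCR7 and X2 against X2-PDPN were each sequenced in 1 batch. In bulk RNA, fewer cells carrying a transcript and less of that transcript per cell cannot be told apart.

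Total counts per library lay between 22275468 and 33395418 in batch 1 and between 22788542 and 35721027 in batch 2. A count of 0 allows up to 3 counts, which corresponded to 0.084 to 0.135 counts-per-million (CPM) across the libraries, and such limits cover counting error only. CCR7 replicate 1 of batch 1 stood apart from its group. Its mean chi-square per degree of freedom against the other replicates was 17.9, compared with 11.9, 9.58 and 7.01 for CCR7 replicates 2, 3 and 4 and 2.65 to 5.59 in the other groups. Fold changes that involve the CCR7 group are given also without this library for the 7 genes and for other complement genes called.

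Complement is a cascade of plasma proteases and their substrates that marks cells for clearance and can open pores in membranes. In the classical pathway the recognition protein C1q carries the proteases C1r and C1s, C1s cleaves C4 and C2, and the enzyme formed from their fragments cleaves C3, where all the pathways meet. Regulators hold the cascade in check: the serpin C1 inhibitor (Serping1) blocks C1r and C1s, CD55 dismantles the C3-cleaving enzymes on membranes, and CD59 keeps the membrane pore from assembling. The liver makes most plasma complement, but tumour cells, fibroblasts and epithelia also transcribe several components, and cytokines and interferons are known to induce C3, C4 and the C1 proteases.

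The labels were checked against the transduced and the sorted gene, which lie outside the complement genes and were chosen for that check. Ccr7 had 15, 4, 9 and 12 counts in the X2 libraries of batch 1, 87681, 82171, 94609 and 61655 in CCR7 and 98991, 97230, 87079 and 83100 in CCR7-PDPN. In batch 2 it had 9, 5, 12 and 14 counts in X2, 29, 17, 23 and 12 in X2-PDPN and 76999, 97687, 100109 and 80939 in CCR7-PDPN. The transduced groups were thus far above the vector groups in both batches, with no overlap. Pdpn had 2, 2, 3 and 0 counts in X2, 20, 12, 10 and 7 in CCR7 and 842, 839, 716 and 697 in CCR7-PDPN of batch 1. In batch 2 Pdpn had 2, 4, 5 and 8 counts in X2, 781, 924, 751 and 700 in X2-PDPN and 576, 738, 753 and 688 in CCR7-PDPN. The groups sorted for high PDPN stood apart from X2 and CCR7 in every library.

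Markers of the labelled tissue were largely missing. Krt8 reached 5071 to 9501 counts in batch 1, while the highest count there was 2 for Epcam, 7 for Cdh1, 9 for Krt18, 3 for Krt14 and 1 for Krt5. Of 7 fibroblast markers, Pdgfra was the most abundant, at 55.4 to 67.5 transcripts-per-million (TPM) as group means, and Lum had 0 counts in all libraries of batch 1.

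Levels of the 7 genes can be compared with each other only per length, on the TPM scale. C3 was the highest of them in every group, with a mean of 106 ± 2.08 TPM (SD, n = 4) in X2 of batch 1 and 24.3 ± 1.25 TPM in CCR7-PDPN of batch 1. C1s1 followed with 24.8 ± 1.18 TPM and C1ra with 21.5 ± 1.09 TPM in X2 of batch 1. In CCR7-PDPN of batch 1 C1ra had 7.31 ± 0.316 TPM and C1s1 6.43 ± 0.838 TPM, so these neighbours in the order did not differ there beyond their spread, nor in CCR7-PDPN of batch 2. Cd59a lay below them at 3.72 to 5.29 TPM as group means and C4b at 0.33 to 0.967 TPM. Serping1 and Cd55 came last. 4 of the 7 genes reached a group mean of 1 TPM, the level under which the study treated values as noise, and C4b did not.

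The classical pathway begins with the proteases C1s and C1r, encoded by C1s1 (ENSMUSG00000038521, chr6:124530345-124542359, minus strand) and C1ra (ENSMUSG00000055172, chr6:124512405-124523443, plus strand; coordinates throughout are of GRCm38). C1s1 had 19.8, 21.2, 19.9 and 21.6 CPM in X2 of batch 1, 13.9, 14.2, 14.8 and 13.8 CPM in CCR7 and 5.08, 5.77, 6.23 and 4.71 CPM in CCR7-PDPN. In batch 2 it had 21.3, 21.4, 19.8 and 21.5 CPM in X2, 22.2, 24.2, 25.1 and 21.2 CPM in X2-PDPN and 6.05, 5.34, 6.07 and 6.00 CPM in CCR7-PDPN. The CCR7-PDPN libraries of both batches were the lowest, CCR7 was intermediate, and X2-PDPN overlapped X2. In CCR7-PDPN the C1s1 level was 26.4% of that in X2 of batch 1 and 27.9% of that in X2 of batch 2.

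C1ra followed a graded course. It had 18.1, 17.1, 15.9 and 17.2 CPM in X2 of batch 1, 10.5, 12.0, 12.1 and 11.9 CPM in CCR7 and 5.86, 5.57, 6.19 and 5.96 CPM in CCR7-PDPN. In batch 2 it had 16.1, 17.6, 17.9 and 19.4 CPM in X2, 13.7, 12.4, 13.2 and 12.3 CPM in X2-PDPN and 6.40, 5.72, 6.10 and 5.96 CPM in CCR7-PDPN. No groups overlapped within a batch, and for C1ra, unlike C1s1, the X2-PDPN libraries lay below all X2 libraries. By TPM the order of C1ra was X2, X2-PDPN, CCR7 and CCR7-PDPN, where X2-PDPN (16.2 ± 1.01) and CCR7 (14.7 ± 1.02) were close: their libraries, sequenced in different batches, lay at 15.3 to 17.3 and 13.1 to 15.2 TPM without overlap, and the means differed by less than the sum of their SDs, with CCR7 replicate 1 the lowest.

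C3 (ENSMUSG00000024164, chr17:57203970-57228136, minus strand) encodes the protein on which the pathways converge. It had 145.3, 145, 140.8 and 147.4 CPM in X2 of batch 1, 50, 66.1, 58.7 and 56.9 CPM in CCR7 and 35.1, 33.5, 34.7 and 31.8 CPM in CCR7-PDPN. In batch 2 C3 had 140.3, 138.7, 144.6 and 146.1 CPM in X2, 83.8, 83.5, 85.4 and 91.2 CPM in X2-PDPN and 36.2, 34.2, 34.0 and 32.1 CPM in CCR7-PDPN. X2 was highest and CCR7-PDPN lowest in both batches, with CCR7 and X2-PDPN between them and no overlap within a batch. The CCR7-PDPN level of C3 was 23.3% of that in X2 of batch 1 and 23.9% in batch 2. By TPM, X2 had the highest C3 level, at 106 ± 2.08 and 103 ± 2.54 in its 2 batches, which did not differ beyond their spread, then X2-PDPN (62.7 ± 2.53), CCR7 (42.4 ± 4.95) and CCR7-PDPN (24.3 ± 1.25 and 24.4 ± 1.17).

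C4b (ENSMUSG00000073418, chr17:34728380-34743882, minus strand) encodes C4, the first substrate of C1s, and was counted on few reads. The C4b counts were 32, 38, 45 and 36 in X2 of batch 1, 35, 22, 35 and 8 in CCR7 and 23, 15, 24 and 17 in CCR7-PDPN. In batch 2 the C4b counts were 42, 55, 33 and 40 in X2, 19, 22, 18 and 17 in X2-PDPN and 11, 14, 14 and 18 in CCR7-PDPN. X2 was above the other groups in CPM in both batches, while CCR7-PDPN overlapped CCR7 in batch 1 and X2-PDPN in batch 2.

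The regulators among the genes chosen by name, Cd59a, Serping1 and Cd55, were low or silent. This does not hold for all complement regulators. In the wider list described below, Clu had 198 to 325 TPM and Cr1l 13.7 to 19.3 TPM as group means. In that list, 6 of 8 soluble and 6 of 10 membrane regulators had at most 3 counts in every batch 1 library. Cd59a (ENSMUSG00000032679, chr2:104095801-104115354, plus strand), which encodes the inhibitor of the membrane pore, had 1.58 to 2.80 CPM across batch 1 and 1.64 to 2.83 CPM across batch 2. Its groups overlapped in each comparison except CCR7-PDPN against X2 of batch 2. Serping1 (ENSMUSG00000023224, chr2:84765387-84775444, minus strand), the gene of C1 inhibitor, had 1, 0, 2 and 1 counts in X2 of batch 1, 2, 1, 0 and 3 in CCR7 and 0, 0, 1 and 0 in CCR7-PDPN. Cd55 (ENSMUSG00000026399, chr1:130439027-130462744, minus strand), the gene of decay-accelerating factor, had 0 counts in all 12 libraries of batch 1. Both lay at or under the limit of 3 counts, so no fold change is given for them and a difference between the groups was not detectable at this depth.

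**Figure D1:**
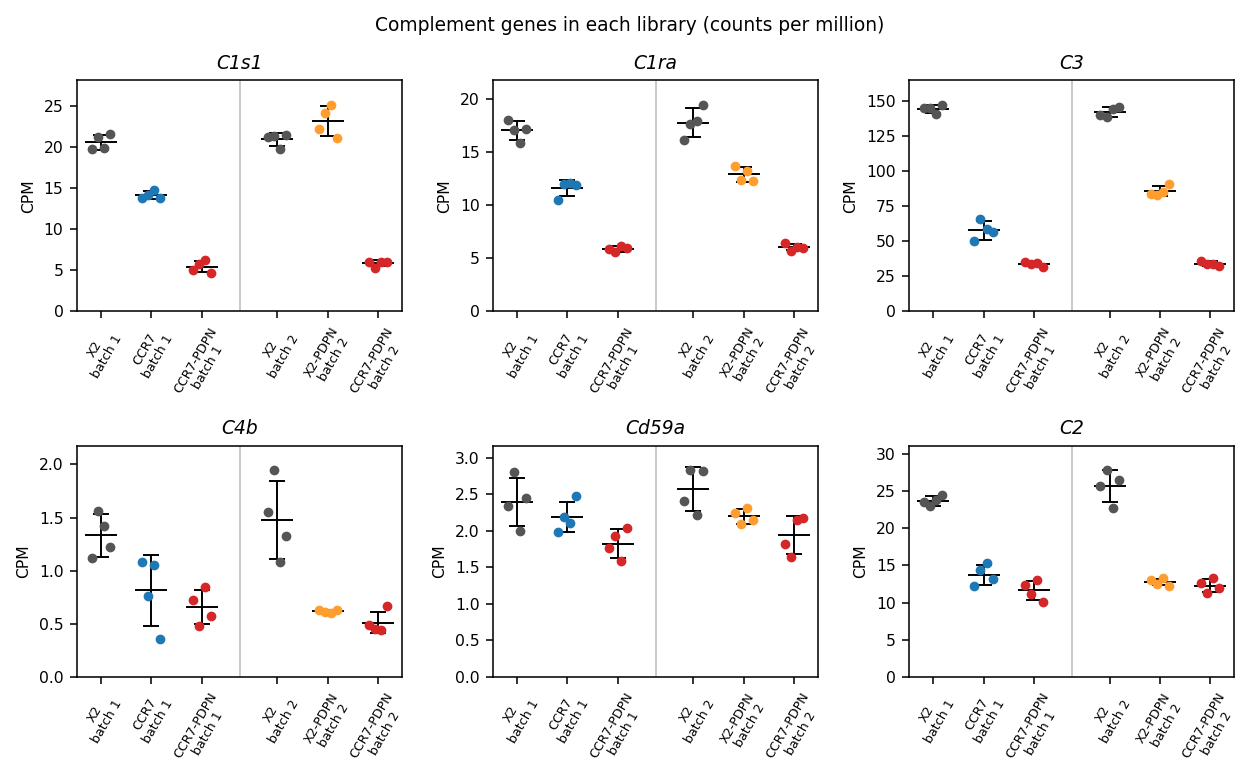
Level in CPM of C1s1, C1ra, C3, C4b, Cd59a and C2 (vertical axes, each starting at 0) in each of the 24 libraries (points), by group on the horizontal axis, with the mean and SD of 4 libraries as bars. C3 in CCR7-PDPN libraries lay between 31.8 and 36.2 CPM against 138.7 to 147.4 CPM in X2, and C1s1 lay between 21.2 and 25.1 CPM in X2-PDPN against 19.8 to 21.5 CPM in X2 of the same batch.

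Some of these genes have close relatives, and reads that match more than 1 gene may have been left uncounted. Of the 75-base windows of the longest coding transcript, 42.4% of those of C1ra also occurred in another gene, chiefly C1rb, and 14.7% of those of C1s1 occurred chiefly in C1s2. The share was 23.5% for C4b, chiefly with C4a, and 1.73% for Cd59a, chiefly with Cd59b, while no window of C3 was shared. The relatives themselves were nearly silent in batch 1, with at most 4 counts per library for C1rb and for C1s2. C4a had 5 to 28 counts in batch 1 and was called in none of the 6 comparisons; in X2-PDPN against X2, where C4b was low, its log2 fold change was −0.25 ± 0.317 (SE, adjusted p = 0.519). Unlike those of C4b, its values in CCR7-PDPN were positive, at 0.76 ± 0.291 against CCR7 (adjusted p = 0.042), 0.98 ± 0.288 against X2-PDPN (adjusted p = 0.0034) and 0.73 ± 0.282 against X2 of batch 2 (adjusted p = 0.0233), with overlap of the groups, and 0.65 ± 0.288 against X2 of batch 1 (adjusted p = 0.0571), without overlap.

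Fold changes came from edgeR fits over all genes of a batch, where a gene was called higher or lower at an adjusted p under 0.05 with an absolute log2 fold change above 1. The comparisons within a batch share libraries, so they are not independent of each other. Of the 7 genes, 5 could be tested. The median log2 fold change over all genes tested lay between −0.00327 and 0.00332 in the 6 comparisons and was −0.00348 for the interaction described last.

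CCR7 against X2 asks what transduction with the receptor goes with in cells without high PDPN, and it also carries the PDPN-negative sort of the CCR7 cells; whether the X2 cells went through such a sort is not stated in the labels. C3 was lower, with a log2 fold change of −1.32 ± 0.06 (SE), and stayed so without CCR7 replicate 1 (−1.25 ± 0.041). It was the 1 gene of the 5 called lower, against 3.18% of all 13261 genes tested. C1s1 (−0.54 ± 0.0646) and C1ra (−0.56 ± 0.064) did not reach the fold threshold, nor did C4b (−0.64 ± 0.243) and Cd59a (−0.13 ± 0.138). Without CCR7 replicate 1 these 4 values were −0.53, −0.505, −0.79 and −0.09. No complement member was called higher by edgeR, with 0 at an unadjusted p under 0.05 and 0 called by DESeq2, against 3.3% of all genes. The median of the 5 log2 fold changes was −0.56.

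CCR7-PDPN against CCR7 asks what the PDPN sort goes with among cells that carry Ccr7. C1s1 was called lower, at −1.38 ± 0.0763 (38.3% of the CCR7 level), against 2.6% of all genes called lower. C1ra was just short of the fold threshold at −0.97 ± 0.0728 and was not called, and C3 had −0.78 ± 0.0642. Without CCR7 replicate 1, C1ra passed it at −1.02 ± 0.0742 and the number called lower was 2, while C1s1 had −1.40 ± 0.0798 and C3 −0.85 ± 0.0444. C4b (−0.37 ± 0.274) and Cd59a (−0.25 ± 0.142) were not called, and had −0.22 and −0.29 without that library. The count called higher was 0 by edgeR, with 0 at an unadjusted p under 0.05 and 0 by DESeq2, against 0.664% of all genes. The median over the 5 genes was −0.78.

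CCR7-PDPN against X2 was measured in both batches and spans both steps. In batch 1, 4 of the 5 genes were called lower, C3 (−2.10 ± 0.0627), C1s1 (−1.92 ± 0.0734), C1ra (−1.53 ± 0.0698) and C4b (−1.02 ± 0.254), against 5.36% of all genes. In batch 2 the same 4 were called lower, at −2.06 ± 0.0365, −1.84 ± 0.0694, −1.56 ± 0.0719 and −1.52 ± 0.236, against 5.67% of all 13314 genes tested. The batch 1 value of C4b was just past the fold threshold, and the number called was 3 when X2 replicate 2 or 3, or CCR7-PDPN replicate 2 or 4, was left out. Cd59a had −0.38 ± 0.14 and −0.40 ± 0.143. The count called higher was 0 in either batch by edgeR, with 0 at an unadjusted p under 0.05 and 0 by DESeq2, against 4.09% and 3.96% of all genes. The medians over the 5 genes were −1.53 and −1.56.

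X2-PDPN against X2 asks what the PDPN sort goes with in cells without the receptor. C4b was called lower at −1.24 ± 0.222, against 1.55% of all genes. C3 had −0.73 ± 0.0326 (60.3% of the X2 level) and C1ra −0.46 ± 0.0621, both short of the fold threshold and without overlap between the groups. C1s1 went the other way at 0.15 ± 0.0544, a difference that lay within the overlap of the groups. By edgeR 0 of the 5 genes were called higher, with 1 (C1s1) at an unadjusted p under 0.05 and 0 by DESeq2, against 3.51% of all genes. The median was −0.46.

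CCR7-PDPN against X2-PDPN sets cells with and without the receptor side by side, both sorted for PDPN. C1s1 had the largest difference of the 5 genes, −1.99 ± 0.068 (25.2% of the X2-PDPN level), followed by C3 (−1.33 ± 0.0374) and C1ra (−1.10 ± 0.0749). These 3 were called lower, against 6.4% of all genes. C4b (−0.28 ± 0.277) and Cd59a (−0.17 ± 0.146) were not. The count called higher was 0 by edgeR, with 0 at an unadjusted p under 0.05 and 0 by DESeq2, against 2.76% of all genes. The median over the 5 genes was −1.10.

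Whether the difference that goes with PDPN depended on the receptor was measured as CCR7-PDPN minus CCR7 in batch 1, less X2-PDPN minus X2 in batch 2, over 13690 genes and all 24 libraries. This difference of differences sets cells of 1 batch against cells of the other. It was −1.53 ± 0.0939 for C1s1, −0.51 ± 0.0951 for C1ra, −0.05 ± 0.0726 for C3, 0.87 ± 0.351 for C4b and −0.02 ± 0.188 for Cd59a, with a median of −0.05. C1s1 was the 1 gene called lower, against 4.48% of all genes, and 0 were called higher by edgeR, with 1 (C4b) at an unadjusted p under 0.05 and 0 by DESeq2, against 0.964% of all genes. Without CCR7 replicate 1 the values were −1.55 for C1s1, −0.56 for C1ra, −0.12 for C3 and −0.07 for Cd59a, the C4b value was 1.02 ± 0.365 and was called, and without CCR7 replicate 3 the number called higher was also 1. Set against X2, the CCR7 group had lower values of C1s1, C1ra, C3 and C4b, and X2-PDPN had lower values of C1ra, C3 and C4b and overlapped X2 in C1s1.

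Leukocytes make complement too, and the mean summed level of their 10 markers was also lowest in CCR7-PDPN. Its libraries overlapped those of each other group of the same batch except X2 of batch 1. The part of such cells in the complement levels was not tested. The sums were 2.13, 1.98, 2.28 and 2.93 CPM in X2 of batch 1, 1.67, 1.78, 1.71 and 2.21 CPM in CCR7 and 1.70, 1.41, 1.20 and 1.76 CPM in CCR7-PDPN. In batch 2, where of the 10 only Cd14 had an entry, they were 2.19, 2.12, 1.40 and 2.58 CPM in X2, 1.71, 2.12, 1.87 and 1.52 CPM in X2-PDPN and 1.56, 1.22, 1.17 and 1.21 CPM in CCR7-PDPN. Cd14 was the most abundant marker, 7 of the 10 had at most 3 counts in every batch 1 library, Cd3e had 0 in all of them and Ptprc at most 4. The 3 genes of C1q, a macrophage product and the partner of C1r and C1s, had at most 2 counts in any batch 1 library. The fibroblast markers summed to 226 ± 3.39 CPM in X2, 243 ± 15 CPM in CCR7 and 216 ± 5.87 CPM in CCR7-PDPN of batch 1 (SD, n = 4). Nearly all of this came from Pdgfra and Pdgfrb, with 156.2 and 68.1 CPM in X2 of batch 1. Of the 7 fibroblast markers, 4 had at most 3 counts in every batch 1 library. Of the other marker lists in batch 1, 4 endothelial genes summed to 0.603 to 0.737 CPM as group means, 4 hepatocyte genes to 0.0188 to 0.0493 CPM with Ttr and Serpina1a at 0, and 6 mammary tumour and epithelial genes to 231 to 298 CPM. The epithelial sum was nearly all Krt8, which alone had 230.5 CPM in X2 and 297.5 CPM in CCR7-PDPN.

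The 7 genes sit in a wider list of 58 complement genes, of which 21 had an entry in batch 2 and 29 had at most 3 counts in every library of batch 1. Of the pore-forming and lectin components, C6, C8a, Mbl1, Mbl2 and Colec10 had 0 counts throughout batch 1. 14 genes reached a group mean of 1 TPM. By the highest group mean, the most abundant initiator of the classical pathway was C1s1 (27.8 TPM in X2-PDPN). The mean of C1rl was above that of C1s1 in CCR7, where their libraries overlapped, and in CCR7-PDPN, where they did not. By the same rule the ficolin gene Fcna led the lectin pathway (13.4 to 17.0 TPM as group means) and properdin (Cfp, 2.84 to 3.73 TPM) the alternative pathway. C3 led the central components and C8g (0.553 to 1.08 TPM) the terminal ones. Clusterin (Clu, 198 to 325 TPM) led the soluble regulators. Cr1l (13.7 to 19.3 TPM), a relative of the receptor CR1, led the membrane regulators and C1qbp (334 to 381 TPM) the receptors.

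Of the 20 list genes tested in batch 1, the numbers called higher and lower were 1 and 2 in CCR7 against X2 (3.3% and 3.18% of all genes), 0 and 1 in CCR7-PDPN against CCR7 (0.664% and 2.6%) and 1 and 6 in CCR7-PDPN against X2 (4.09% and 5.36%). In the last of these DESeq2 called 9 lower, and edgeR with no filter on low counts 11. The 0 came with 3 at an unadjusted p under 0.05 by edgeR and 0 called by DESeq2. Of the 21 tested in batch 2, they were 2 and 2 in X2-PDPN against X2 (3.51% and 1.55% of all genes), 0 and 6 in CCR7-PDPN against X2-PDPN (2.76% and 6.4%) and 1 and 7 in CCR7-PDPN against X2 (3.96% and 5.67%). The 0 here came with 4 at an unadjusted p under 0.05 and 1 called by DESeq2. The list medians of the log2 fold change, in that order of comparisons, were −0.14, −0.19, −0.41, 0.08, −0.17 and −0.40. In all, 10 list genes were called in some comparison, C1ra, C1s1, C3 and C4b and, outside the 7, C2, Hc, Cd46, Cpn2, C5ar2 and Itgax. Without CCR7 replicate 1 the counts in CCR7 against X2 were again 1 and 2, and the number lower in CCR7-PDPN against CCR7 was 2, by the addition of C1ra, and it was 2 also without CCR7-PDPN replicate 3.

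C2, the other substrate of C1s, had 672, 557, 753 and 719 counts in X2 of batch 1, 395, 412, 510 and 292 in CCR7 and 392, 346, 370 and 298 in CCR7-PDPN. In batch 2 it had 693, 786, 694 and 801 counts in X2, 395, 451, 397 and 330 in X2-PDPN and 283, 349, 421 and 326 in CCR7-PDPN. X2 was highest in both batches. C2 fell in X2-PDPN against X2 (log2 fold change −1.005 ± 0.0602, adjusted p = 1.28e-18) and in CCR7-PDPN against X2 (−1.03 ± 0.0737, adjusted p = 8.98e-11, in batch 1 and −1.06 ± 0.0616, adjusted p = 1.52e-19, in batch 2), so like C4b it was low in X2-PDPN. All 4 libraries of the lower group lay below all 4 of X2 in each. In CCR7 against X2, C2 had −0.78 ± 0.0725 (−0.72 without CCR7 replicate 1), also without overlap but short of the fold threshold. The X2-PDPN value lay at the threshold, and the number of list genes called lower there was 1 without X2 replicate 2 or 4 or without X2-PDPN replicate 2 or 4. Of the 75-base windows of C2, 55.6% also occurred in another gene, chiefly Gm20547.

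Hc, which encodes C5, the component cleaved after C3, had low counts wherever the receptor was present. It had 28, 15, 28 and 32 counts in X2 of batch 1, 3, 1, 1 and 2 in CCR7 and 2, 3, 3 and 3 in CCR7-PDPN, and in batch 2 28, 25, 27 and 30 counts in X2, 23, 50, 45 and 29 in X2-PDPN and 2, 0, 1 and 2 in CCR7-PDPN. Every library with the receptor was near 0 and every library without it was well above. Hc was 15.1-fold lower in CCR7 than in X2 (95% counting interval 7.05 to 38.4), from totals of 7 against 103 counts. It was 26.8-fold lower in CCR7-PDPN than in X2-PDPN (interval 11.2 to 83.8), from totals of 5 against 147 counts. Hc passed the filter on low counts only through the libraries without the receptor, where it was high. These values are therefore description, and no p is given for them. Without CCR7 replicate 1 the fitted log2 fold change of CCR7 against X2 was −4.13, against −3.81 with all libraries. In X2-PDPN against X2 the ratio was 1.26 (interval 0.977 to 1.63, adjusted p = 0.215). C5ar2, a second receptor for C5a, was higher in CCR7 than in X2 by 5.08-fold (interval 2.56 to 11.2), on 52 against 10 counts. Its fitted log2 fold change was 2.28, or 2.10 without CCR7 replicate 1. In X2-PDPN against X2, without the receptor, it rose 3.08-fold (interval 1.54 to 6.72). C5ar2 had 0 to 5 counts in the X2 libraries of either batch. It passed the filter on low counts only through groups where it was higher, so no p is given. Fits of only the 2 groups compared applied the filter on low counts anew. In them 0 list genes were called higher in CCR7 against X2 and 0 in CCR7-PDPN against X2 of batch 2. In X2-PDPN against X2 it was 1, in place of 2. These fits cannot show whether the C5ar2 calls hold, because a gene under the filter is not tested. With no filter on low counts, C5ar2 was called higher in each of these comparisons.

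Cd46 encodes a membrane cofactor for the breakdown of C3b and C4b. In batch 1 its counts were 67, 70, 73 and 69 in X2, 68, 72, 57 and 58 in CCR7 and 40, 26, 58 and 30 in CCR7-PDPN, with overlap of CCR7 and CCR7-PDPN in CPM. Its counts in batch 2 were 75, 64, 80 and 59 in X2, 113, 96, 112 and 76 in X2-PDPN and 24, 31, 53 and 34 in CCR7-PDPN. In batch 2 each CCR7-PDPN library was below every other library in CPM. Cd46 fell in CCR7-PDPN against X2-PDPN (−1.35 ± 0.166, adjusted p = 1.85e-09), and its difference of differences was −1.21 ± 0.268 (adjusted p = 0.000412), or −1.24 ± 0.279 without CCR7 replicate 1. Cpn2, a subunit of the carboxypeptidase that inactivates C3a and C5a, rose in X2-PDPN against X2 (1.40 ± 0.345). It had 17 to 30 against 3 to 13 counts, and the groups overlapped once scaled to CPM. The difference of differences of Cpn2 was −1.08 ± 0.499 and not called, but −1.24 ± 0.517 and called lower without CCR7 replicate 1. Itgax, a chain of a receptor for a C3 fragment, fell in CCR7-PDPN against X2-PDPN (−1.26 ± 0.43) on 1 to 9 against 8 to 20 counts, with overlap of the groups. It fell also in CCR7-PDPN against X2 of batch 2 (−1.78 ± 0.402), without overlap. Cpn2 and Itgax reached enough counts for the fit through the groups where they were higher, so no p is given for them.

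**Figure D2:**
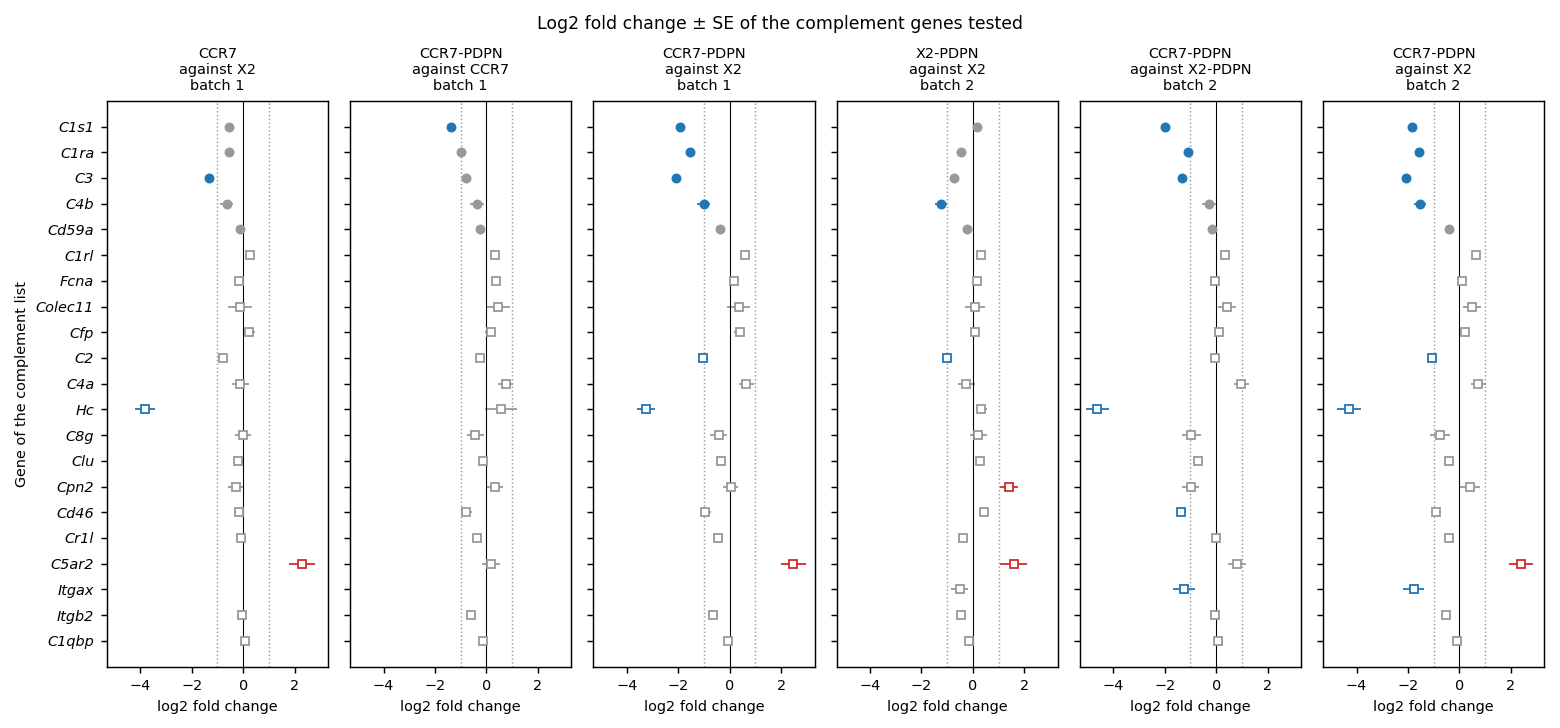
Log2 fold change with its SE (horizontal axes) of the complement genes tested, by gene (vertical axis), in the 6 comparisons within a batch; filled circles are the genes chosen by name, open squares the rest of the wider list, blue marks genes called lower, red genes called higher, and dotted lines the log2 threshold of 1. C1s1, C1ra and C3 are blue in the 3 panels that set CCR7-PDPN against X2 or X2-PDPN.

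C1ra and C1s1 are immediate neighbours on chromosome 6, on opposite strands and with their 3′ ends facing each other. The gene on the other side of C1ra, C1rl, which encodes a C1r-like protease, had a different course. In batch 1 its mean level was 14.9 TPM in X2, 18.1 TPM in the CCR7 group and 22.4 TPM in CCR7-PDPN, and it was not called in any of the 6 comparisons (log2 fold change of CCR7-PDPN against X2 of batch 1 0.61 ± 0.0595). Lpcat3, the tested gene beyond C1s1, had 0.29 in the same comparison. Around C3 the nearest tested genes, Khsrp (0.17) and Gpr108 (−0.43), were not called in any of the 6 comparisons, nor were Tnxb and C4a around C4b or Fbxo3 and Gm13882 around Cd59a. Beside Serping1, the interferon-inducible gene Ube2l6 had −1.36 in CCR7-PDPN against X2 of batch 1 and −1.54 in X2-PDPN against X2, and Gm19426 on the other side was not called. The nearest tested genes around Cd55 were Pfkfb2, which was not called, and the distant Gm6170 (chr1:128520073-128521460), which was called higher in CCR7-PDPN against X2 of batch 2 (1.16).

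**Figure D3:**
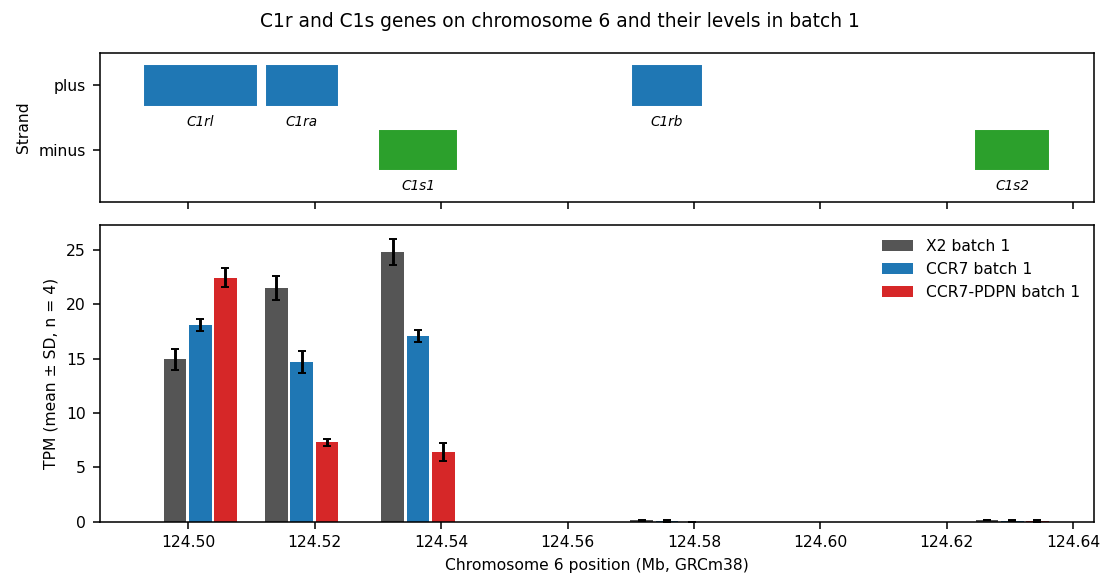
The C1r and C1s genes on chromosome 6 of GRCm38 (upper panel, position in megabases by strand) and their TPM in X2, CCR7 and CCR7-PDPN of batch 1 (lower panel, mean and SD of 4 libraries, axis from 0). C1ra and C1s1 are lowest in CCR7-PDPN, while the mean of C1rl, next to C1ra, is 14.9 TPM in X2 and 22.4 TPM in CCR7-PDPN.

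Across the 24 libraries, whose log2 CPM values share groups and batches, C1ra varied most closely with C3 (Pearson r = 0.969) and with C1s1 (r = 0.95), and C4b and Cd59a least with each other (r = 0.51). Among 10532 genes searched over the same libraries, those most like C1s1 were Hpse (r = 0.987), Abcc4 (0.984) and Samd9l (0.981). Those most like C1ra were Ero1l (0.989), Stard13 (0.988) and Kcnq5 (0.987). Those most like C3 were Il1rap (0.991), Eaf1 (0.99) and Pak1 (0.99). C4b and Cd59a had looser matches, led by Zfp869 (0.901), Ndufaf5 (0.883) and Tnfrsf12a (0.871) and by Zfp322a (0.83), Platr16 (0.826) and Dimt1 (0.813).

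Genes of the interferon axis, a known inducer of complement, are shown beside the members. Irf7 had −1.23 in CCR7 against X2 (−1.26 without CCR7 replicate 1), −1.42 in CCR7-PDPN against CCR7 (−1.39 without it), −2.72 in X2-PDPN against X2 and 0.16 in CCR7-PDPN against X2-PDPN, and its difference between the 2 PDPN contrasts was 1.30 (1.33 without CCR7 replicate 1). Its CCR7-PDPN libraries overlapped those of X2-PDPN in CPM, as did those of Isg15, C4b and C2. For Irf9, C1s1, C1ra and C3 the CCR7-PDPN libraries lay below those of X2-PDPN without overlap. Irf9 and Isg15 were also called lower in CCR7 against X2, in X2-PDPN against X2 and in CCR7-PDPN against X2 of both batches. The calls of batch 1 held without CCR7 replicate 1. Irf1 and Stat2 were not called. Of the factors that act on acute phase genes, Osmr, the receptor subunit for oncostatin M, was called lower in all 6 comparisons. Its values ran from −1.003 ± 0.302 (−1.03 without CCR7 replicate 1) in CCR7-PDPN against CCR7 to −3.31 ± 0.228 in CCR7-PDPN against X2 of batch 1. Osmr had a mean of 0.31 CPM in CCR7-PDPN and 3.07 CPM in X2 of batch 1. It reached enough counts for the fit through groups where it was higher, so no p is given. Tnf had −1.46 in CCR7 against X2 (−1.49 without CCR7 replicate 1) and −1.24 in CCR7-PDPN against X2-PDPN. Il6, Il1a and Il1b had at most 5 counts per library in batch 1, and Il6st, Stat3, Cebpb, Cebpd, Nfkb1 and Rela were not called. The part of these genes in the levels of C3, C1s1, C1ra or C4b was not tested.

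Promoters of C1ra, C1s1 and C3 are printed because these 3 genes were lower together in CCR7-PDPN. The sequences are RefSeq promoters of GRCm38.p6, from 250 bases before to 50 bases after the transcript start, 5′ to 3′ on the gene's strand, and 42 of the 58 list genes had one. Motifs searched on both strands were C/EBP (TTGCNNAA), the gamma-interferon activation site (TTCNNNGAA), the interferon-stimulated response element (GAAANNGAAA) and NF-kappaB by name, which occur in 10.8%, 8.29%, 3.43% and 8.46% of all 32817 promoters, and matches are in capitals. The C1ra window is chr6:124512371-124512670 (plus strand), the C1s1 window chr6:124542310-124542609 (minus strand) and the C3 window chr17:57228087-57228386 (minus strand).
C1ra: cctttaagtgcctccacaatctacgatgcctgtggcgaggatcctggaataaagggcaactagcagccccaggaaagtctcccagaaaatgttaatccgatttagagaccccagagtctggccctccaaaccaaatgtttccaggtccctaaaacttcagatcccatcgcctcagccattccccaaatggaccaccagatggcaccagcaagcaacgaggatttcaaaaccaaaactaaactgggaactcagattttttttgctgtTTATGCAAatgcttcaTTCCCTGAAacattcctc
C1s1: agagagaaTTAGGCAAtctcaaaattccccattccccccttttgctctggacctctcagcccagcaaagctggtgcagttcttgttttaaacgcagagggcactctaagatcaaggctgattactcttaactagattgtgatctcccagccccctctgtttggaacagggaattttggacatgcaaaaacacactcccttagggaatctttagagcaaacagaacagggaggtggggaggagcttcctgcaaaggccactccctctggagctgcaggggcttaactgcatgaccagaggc
C3: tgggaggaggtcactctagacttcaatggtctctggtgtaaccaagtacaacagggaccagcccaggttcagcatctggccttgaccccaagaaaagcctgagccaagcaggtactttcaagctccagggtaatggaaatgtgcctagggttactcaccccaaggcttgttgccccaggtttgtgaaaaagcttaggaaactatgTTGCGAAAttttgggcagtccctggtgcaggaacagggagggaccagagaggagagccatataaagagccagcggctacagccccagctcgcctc

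Each of the 3 windows held the C/EBP letters, in C3 as TTGCGAAA from position −45 relative to the transcript start, in C1s1 on the opposite strand from position −242 and in C1ra on the opposite strand from base 17 of the RefSeq transcript. The C1ra window began at chr6:124512371, close to the start of the counted gene at chr6:124512405. Most of that window therefore lay inside the counted gene, and its positions are relative to a RefSeq start further downstream. A second C1s1 window, of another transcript start further downstream, held none of the motifs. The C1ra window also held TTCCCTGAA, a match to the gamma-interferon activation site, from base 33. The Cd59a window held GAAAGGGAAA, a match to the interferon-stimulated response element, and that of Cd55 held no match. C4b and Serping1 had no entry in the promoter table. The C/EBP letters also occurred in the windows of C1rl, Cpn2 and C5ar2, none of which was called lower, so they are not particular to the genes that were low. A match describes letters in a window and not binding of a factor.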

How the data were processed

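Polyadenylated RNA of 4 EO771 derivatives was measured in 24 libraries. The authors mapped 75-base single-end reads to GRCm38, and the deposited values are raw counts for each Ensembl gene, 1 table per batch, not normalized; the rule that filtered the batch 2 table was not stated, and its lowest maximum count was 10. Groups came from the sample labels. Comparisons within a batch used edgeR 4.0.16 in R 4.3.3 (filterByExpr, TMM normalization, a robust quasi-likelihood fit of the 3 groups together, Benjamini-Hochberg adjustment over all genes kept); the SE was the size of the log2 fold change divided by the root of F. Replicate numbers do not pair libraries between groups. TPM used the deposited gene lengths over the 13915 genes in both tables, and log2 CPM a prior count of 2. Counting intervals were exact at 95%. Transcript windows and coordinates came from GENCODE.

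The genes and lists were chosen with earlier results of these data known. Genes named were the 7 members, list genes past the threshold in at least 1 comparison, the most abundant gene of each role, the 3 genes most correlated with each member (mean log2 CPM of at least 1) and the nearest tested gene on each side; C1rl, C4a and other genes named beside them were chosen after their values were seen. Alternatives were DESeq2 1.42.0, RLE size factors, no filter on low counts, fits of the 2 groups compared, no fold change threshold, leaving out single libraries and a replicate block. The code was tested on simulated data. Python 3.11.15, pandas 2.3.3, scipy 1.17.1 and matplotlib 3.10.9 made tables and figures.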

Additional observations from a re-analysis of the deposited data

Results flagged for a closer look

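In 30 groups of 4 libraries, 1 for each tested complement member and group, 3 held a library far from the other replicates by Dixon's criterion, and chance gives about 1 in 20 such groups. C1s1 had 19.79 CPM in X2 batch 2 replicate 3, below the other X2 libraries of that batch. C1s1 had 5.338 CPM in CCR7-PDPN batch 2 replicate 2, also the lowest of its group. C1ra had 10.46 CPM in CCR7 batch 1 replicate 1, the library that stood apart from its group over all genes.

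For 3 members the difference that goes with PDPN was listed as unlike between cells with and without the receptor, because edgeR's difference of differences had an adjusted p under 0.05, with no fold threshold; of the 3, C1s1 alone also passed the fold threshold. These members were selected on the same libraries, so this is a description and not a test of them, and no p is given. The value on the log2 scale was −1.53 for C1s1, whose PDPN difference was −1.38 with the receptor and 0.15 without it. It was −0.507 for C1ra, from −0.97 with the receptor and −0.46 without it. It was 0.873 for C4b, from −0.37 with the receptor and −1.24 without it. The C4b value rests on few counts and ranged from 0.68 without CCR7 replicate 4 to 1.02 without CCR7 replicate 1; with DESeq2, or with any of several single libraries left out, it no longer passed.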

How the results depend on the processing

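Of 650 log2 fold changes and interactions of members compared with an alternative, 616 kept their direction and their side of an adjusted p of 0.05, 28 lost the threshold (C4b, Cd59a and C1s1) and 6 reversed, all of them interactions near 0 when 1 library was left out: C3 to 0.0259 without CCR7 replicate 2 and Cd59a to 0.0335, 0.0382, 0.0059, 0.0432 and 0.00225 without CCR7 replicate 4, CCR7-PDPN replicate 3 of batch 1, X2 replicate 1 or 3 of batch 2, or X2-PDPN replicate 3 (lowest values −0.119 and −0.0748). With RLE size factors, no filter or the replicate block, the 35 values each kept direction and side.

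Without the fold change threshold, by construction, more genes were called. Members lower were 4 in CCR7 against X2, 3 in CCR7-PDPN against CCR7 and 3, with 1 higher, in X2-PDPN against X2, and the interaction had 1 higher and 2 lower. Complement list genes higher and lower were 2 and 7, 3 and 9, 2 and 12 in the batch 1 comparisons and 6 and 7 in X2-PDPN against X2. They were 4 and 9 in CCR7-PDPN against X2-PDPN, 3 and 13 in CCR7-PDPN against X2 of batch 2 and 2 and 4 in the interaction. Fits of only the 2 groups compared filtered low counts anew, so a gene could drop out untested. In them, list genes higher were 0 in CCR7 against X2, 1 in X2-PDPN against X2 and 0 in CCR7-PDPN against X2 of batch 2. With no filter on low counts, list genes lower in CCR7-PDPN against X2 of batch 1 were 11, which include the low-count genes C1rb, Masp1, C3ar1, Itgax and Cd93. DESeq2 called 1 list gene higher and 7 lower (6 by edgeR) in CCR7-PDPN against X2-PDPN, and 9 lower (6 by edgeR) in CCR7-PDPN against X2 of batch 1. The cause of the other shifts was not tested.

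With each library left out in turn, members lower in CCR7-PDPN against CCR7 ranged from 1 to 2 and members higher in the interaction from 0 to 1. List genes lower ranged from 1 to 2 in CCR7-PDPN against CCR7 and from 1 to 2 in X2-PDPN against X2. In the interaction Cpn2 was also called lower without CCR7 replicate 1. List genes higher ranged from 0 to 2 in CCR7-PDPN against X2-PDPN (1 without CCR7-PDPN replicate 2 or 3, 2 without X2-PDPN replicate 2) and from 0 to 1 in the interaction. Depth limits C4b, Hc and C5ar2, and Serping1 and Cd55 most.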
